A study of Mus musculus with 12 samples.

Results

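This account covers the genes for glutamate and GABA receptor subunits in mouse striatum after repeated morphine, with or without sodium butyrate. The members were 39 receptor genes listed by symbol, each found on a probe set carrying a single gene symbol, out of 19935 such genes on the array. They comprise 4 AMPA, 5 kainate and 7 NMDA or delta receptor subunits, 7 metabotropic glutamate receptors, 14 GABA-A subunits and 2 GABA-B subunits. Gabrb2 was read by 3 probe sets, which were averaged, and each other member by 1.

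Glutamate, released by cortical and thalamic axons, excites striatal neurons through ligand-gated channels. AMPA and kainate receptors open on binding glutamate, and NMDA receptors also need depolarisation and a co-agonist. Metabotropic glutamate receptors act through G proteins. GABA, the transmitter of the striatal projection neurons themselves, opens chloride channels built from GABA-A subunits and signals through the G protein-coupled GABA-B receptor. Which subunits are assembled sets a channel's kinetics, its drug sensitivity and whether it sits in the synapse or outside it.

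Striatal RNA came from 2 months old male Swiss-Albino mice, an outbred strain, with the RNA of 4 animals pooled on each of 12 arrays. Induction consisted of 6 trials on alternate days. The saline group (6 arrays) received vehicle in place of both agents, the morphine group (3 arrays) vehicle and then morphine at 20 mg/kg, and the butyrate-morphine group (3 arrays) sodium butyrate, a histone deacetylase inhibitor, at 300 mg/kg and then morphine at 20 mg/kg. The challenge came 7 days later and tissue was taken 1 h after it. Both morphine groups received morphine at the challenge. For the saline group the labels conflict, since the source names give saline and the protocol text gives morphine to every animal. By its title the study asks whether inhibiting histone deacetylases boosts responses to drugs of abuse. The labels do not say whether the animals behind different pools were treated as separate cohorts. The p-values therefore reflect pool-to-pool spread, which may be partly technical.

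Values are log2 differences from the saline baseline. The deposited table is centred so that saline arrays 1 and 2, 3 and 4, and 5 and 6 are mirror images in every row, to within 1e-06. The saline mean is therefore 0 for every gene, the 6 saline arrays hold 3 independent values, and no absolute level can be compared between genes. Array medians lay between -0.0172 and 0.0121. Precision is limited by how few arrays there are. The rounding of the stored numbers still shows a coarse brightness class, with stored values either from 4 to 8 or from 8 to 16. In that reading 23 of the 39 members fell in the upper class. The lower class held 16, among them Gabrq, Grik1, Gabrg1, Grin3a and Grin2c, which appear in the results below, as well as Gabra6, known from cerebellar granule cells, Grm6, known from the retina, and the rho subunits Gabrr1 and Gabrr2. Striatal projection neuron markers were in the upper class for 6 of 8 genes, with the other 2 unread. Thalamic and septal markers were in it for 0 of 8, with 1 unread. In pooled tissue, fewer cells of a type and less RNA per cell cannot be told apart.

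Marker genes of regions adjoining the striatum varied among the arrays. Calls in this paragraph are those of the limma fit with 6 saline replicates described below, at an adjusted p under 0.05. In that fit 1.37% of all genes rose and 1.29% fell with morphine, and 1.85% rose and 0.637% fell with butyrate-morphine. The mean of 8 thalamic and septal markers was 0.09, 0.54 and 0.65 in morphine arrays 1 to 3 and 0.49, -0.07 and 0.24 in butyrate-morphine arrays 1 to 3, with saline arrays between -0.05 and 0.05. Of these 8, 3 rose with morphine and 0 with butyrate-morphine. With morphine 7 were above 0 and Lef1 was below it (-0.07). With butyrate-morphine 6 were above 0, and Prkcd (-0.08) and Lef1 (-0.02) were below it. The mean of 5 cortical markers was 0.08, -0.73 and -0.33 in the morphine arrays and -0.15, 0.04 and -0.08 in the butyrate-morphine arrays, with saline arrays between -0.08 and 0.08. Of these 5, 0 passed in either group. Of 8 choroid plexus markers, 8 rose with morphine and 7 with butyrate-morphine, and their mean was 0.96 to 1.54 in the 6 arrays. Of 8 endothelial markers, 4 fell in each group. Of 8 striatal projection neuron markers, 3 fell with morphine (Drd2, Pde10a and Adcy5) and 0 with butyrate-morphine, with array means of -0.15 to -0.12 and -0.04 to 0.01. Of 7 microglial markers, 2 fell with morphine and 1 with butyrate-morphine, and of 9 astrocyte markers 1 rose in each. Of the interneuron, oligodendrocyte and precursor markers, 0 passed in either group. The fit was repeated with the cortical and the thalamic and septal means as covariates, and values from it are given below as those with the covariates.

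Against saline, 3 receptor genes were higher with morphine at small differences that rest on how the saline arrays are counted: the GABA-A subunits Gabrq and Gabrb1 and the kainate receptor subunit Grik1. With butyrate-morphine 1 was lower, the GABA-A subunit Gabrd. Over both morphine groups Gabrb1, Grik1 and the AMPA receptor subunit Gria4 were higher and Gabrd was lower. These differences lay between 0.823 and 1.29 of the saline level, and they were calls of limma at an adjusted p under 0.05 over all genes. That fit counts the 6 mirrored saline arrays as 6 replicates although they hold 3 independent values, which understates the saline spread and gives 9 residual degrees of freedom. With each saline pair given a mean of its own (7 residual degrees of freedom, a fit added after seeing the data), 0 members passed in any comparison, and 151, 168 and 361 of all genes were called in place of 531, 495 and 916. The calls with morphine among striatal projection neuron and thalamic and septal markers did not pass in it either. Throughout, rose and fell refer to the fit with 6 saline replicates, and the values from the other fit are given as those with saline pair means. For morphine, the 3 rises among 39 members stand beside 1.37% of all genes called higher, and the 0 falls beside 1.29% called lower. For butyrate-morphine, 0 members rose, where 1.85% of all genes did, and the 1 fall stands beside 0.637%. For the mean of both groups, 3 rises stand beside 2.69% and 1 fall beside 1.91%. In either direction 2.66%, 2.48% and 4.59% of all genes were called in the 3 comparisons. The median difference over the 39 members was -0.02, 0.01 and 0.00, against 0.00, 0.01 and 0.00 over all genes.

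**Figure D1:**
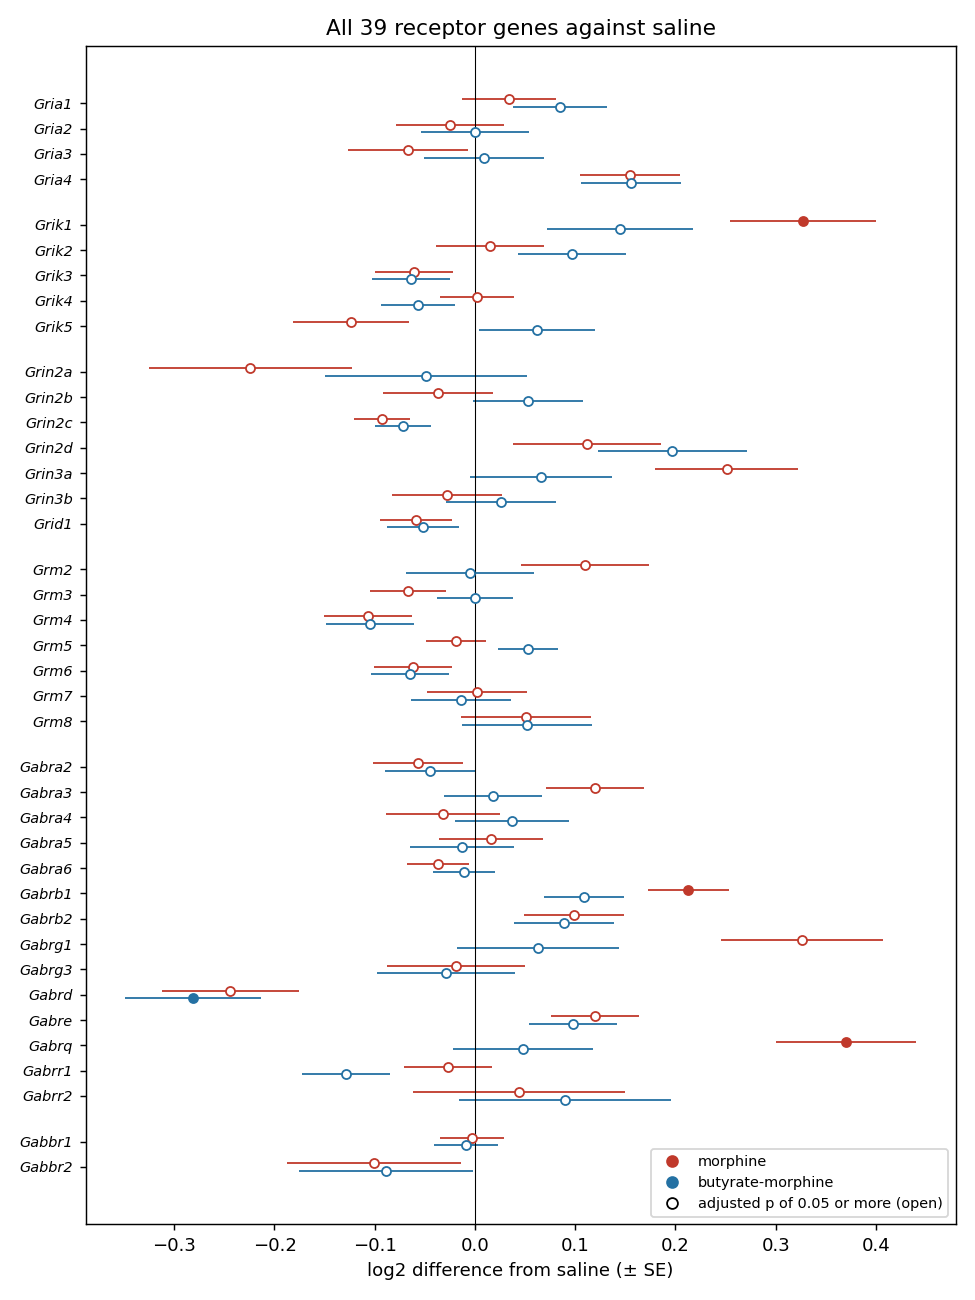
Log2 difference from saline (x axis, ± SE) of each of the 39 receptor genes (y axis, grouped by receptor class), for morphine (red) and butyrate-morphine (blue). Filled symbols have an adjusted p under 0.05 in the fit with 6 saline replicates. Gabrq, Gabrb1 and Grik1 are filled on the right for morphine, Gabrd on the left for butyrate-morphine, and most other members lie within 0.15 of 0.

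The promoters of the 2 GABA-A genes that rose with morphine are shown because both were called in that comparison, although their values per array, given further on, follow different orders. Sequences are the 250 bases before an annotated start, from RefSeq (GRCm38.p6), 5′ to 3′ on the gene's strand, with GC boxes (GGGCGG on either strand) in capitals. The Gabrq window is chrX:72824928-72825177, plus strand, and the Gabrb1 window, before the second of its 2 annotated starts, is chr5:71699682-71699931, plus strand.
Gabrq: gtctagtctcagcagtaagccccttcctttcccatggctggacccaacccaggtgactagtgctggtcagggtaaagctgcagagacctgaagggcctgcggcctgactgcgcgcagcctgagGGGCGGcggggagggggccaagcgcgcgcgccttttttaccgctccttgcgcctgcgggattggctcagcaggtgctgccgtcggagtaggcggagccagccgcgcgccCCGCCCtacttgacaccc
Gabrb1: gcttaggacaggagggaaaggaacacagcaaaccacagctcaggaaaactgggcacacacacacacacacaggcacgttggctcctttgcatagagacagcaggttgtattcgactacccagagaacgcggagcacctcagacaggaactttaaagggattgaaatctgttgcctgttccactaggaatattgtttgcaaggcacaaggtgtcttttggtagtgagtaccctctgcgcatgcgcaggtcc
The Gabrq window holds 2 GC boxes and the Gabrb1 window 0. Over all 32851 promoter windows of this length, 32.7% hold at least 1. Of the members, 29 matched the promoter table, with 36 windows, 18 of them with a GC box. The cAMP response element TGACGTCA and the glucocorticoid response element, searched on both strands, were in 0 of these 36 windows and in 1.55% and 0.387% of all windows.

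Among GABA-A subunits, Gabrq (theta) had the largest difference of any member. Its values were 0.13, 0.55 and 0.43 in morphine arrays 1 to 3 and -0.01, 0.00 and 0.15 in butyrate-morphine arrays 1 to 3. The saline arrays lay between -0.01 and 0.01 with a median of 0.00. All 3 morphine arrays were above all saline arrays, arrays 2 and 3 far more than array 1, while butyrate-morphine arrays 1 and 2 were at the saline level. Gabrq rose 1.29-fold with morphine (0.37 ± 0.21, SD, n = 3, adjusted p = 0.0144). It was at 0.05 ± 0.09 with butyrate-morphine and did not pass there (adjusted p = 0.795). Without morphine array 3 the morphine call was lost (adjusted p = 0.0782). With saline pair means it missed the threshold (0.0546). With the tissue marker means as covariates the difference was 0.22 (adjusted p = 0.157).

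Gabrb1 (beta 1), one of the subunits that form the GABA-binding interface, rose more evenly. It was at 0.22, 0.19 and 0.23 in the morphine arrays and at 0.18, 0.04 and 0.10 in the butyrate-morphine arrays, with saline between -0.08 and 0.08 and a median of 0.00. The morphine arrays did not overlap saline, whereas butyrate-morphine array 2 lay within the saline range. The rise with morphine was 1.16-fold (0.21 ± 0.02, SD, n = 3, adjusted p = 0.0149). With butyrate-morphine the difference was 0.11 ± 0.07 (adjusted p = 0.184), and over both morphine groups 0.16 (SE 0.03, adjusted p = 0.014). The call for both groups was kept in all 12 fits that left out an array (adjusted p up to 0.0386). The morphine call was lost without morphine array 3 (adjusted p = 0.0711). With saline pair means neither passed (adjusted p = 0.0729 for morphine and 0.0633 for both). With the covariates the morphine difference was 0.16 (adjusted p = 0.19). Its butyrate-morphine values stood in the same order as the thalamic and septal means of those arrays, and its morphine values did not. The part of that tissue in the result was not tested beyond the covariate fit.

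Gabrd (delta), found in receptors outside the synapse that carry tonic inhibition, was the member that fell. Its values were -0.06, -0.21 and -0.46 in the morphine arrays and -0.30, -0.20 and -0.34 in the butyrate-morphine arrays. Saline arrays lay between -0.06 and 0.06 with a median of 0.00. The 3 butyrate-morphine arrays and morphine arrays 2 and 3 were below every saline array, and morphine array 1 was not. Gabrd fell to 0.823 of saline with butyrate-morphine (-0.28 ± 0.08, SD, n = 3, adjusted p = 0.0494). With morphine it was at -0.24 ± 0.20 and did not pass (adjusted p = 0.0804). Over both groups it was at 0.834 of saline (-0.26, SE 0.06, adjusted p = 0.0172), called in all 12 fits without an array. The butyrate-morphine call passed in 3 of those 12, the ones without a morphine array, and was lost without any saline or butyrate-morphine array (adjusted p up to 0.163). With the covariates the differences were -0.17 for butyrate-morphine, -0.07 for morphine and -0.12 for both (adjusted p = 0.333). With saline pair means the adjusted p was 0.142 for butyrate-morphine and 0.0576 for both. Its lowest value was in morphine array 3, the array with the highest thalamic and septal mean. Among the butyrate-morphine arrays its lowest value was in array 3, whereas that mean was highest in array 1, at 0.49. In butyrate-morphine array 2, where the mean was -0.07, Gabrd was still below every saline array. A relation between them was not tested beyond the covariate fit.

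**Figure D2:**
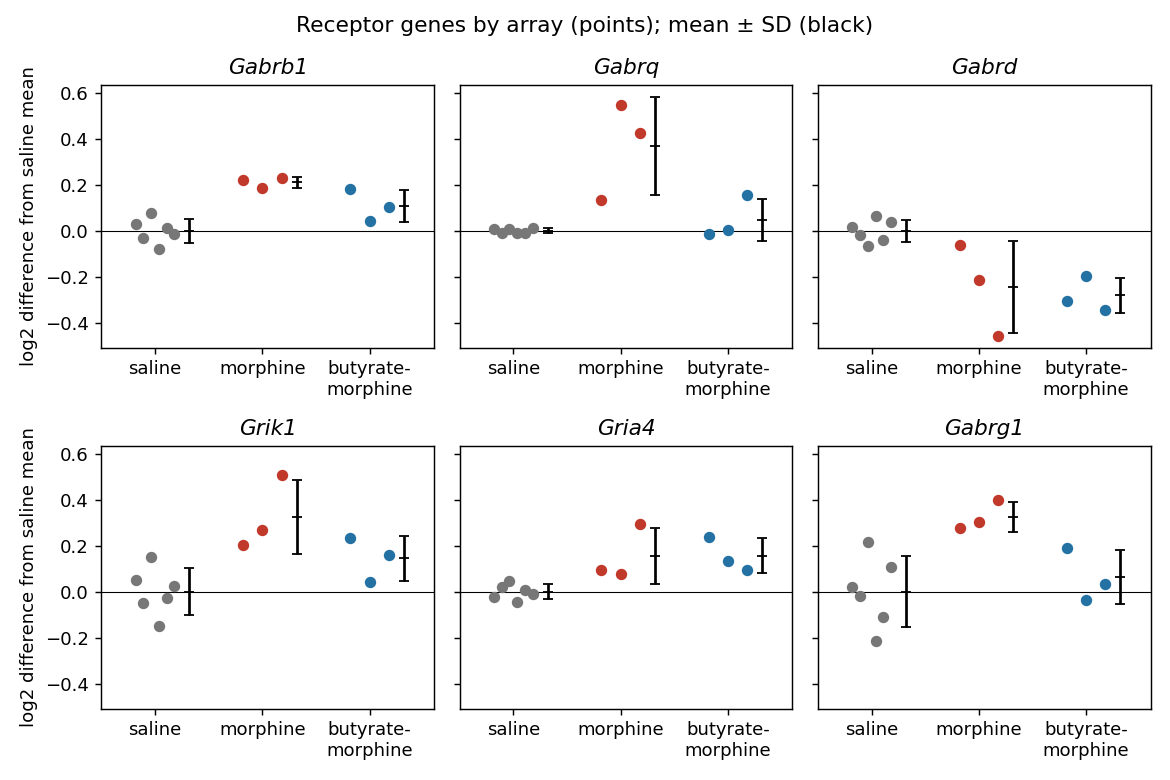
Log2 difference from the saline mean (y axis) of 6 receptor genes, 1 point per array, in the saline, morphine and butyrate-morphine groups (x axis), with the mean ± SD in black. Gabrb1, Gabrq, Grik1, Gria4 and Gabrg1 have all 3 morphine arrays above every saline array, and Gabrd has all 3 butyrate-morphine arrays below them.

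Of the other GABA-A subunits, Gabrg1 (gamma 1) came nearest to a call. It was at 0.28, 0.30 and 0.40 in the morphine arrays and at 0.19, -0.04 and 0.03 in the butyrate-morphine arrays, with saline between -0.22 and 0.22. The difference with morphine was 0.33 ± 0.06 (SD, n = 3, adjusted p = 0.0518), and with the covariates it was 0.22. Gabre (epsilon) was at 0.12 ± 0.11 with morphine and 0.10 ± 0.04 with butyrate-morphine, and Gabra3 at 0.12 ± 0.13 and 0.02 ± 0.03. Gabrr1 was at -0.03 ± 0.07 and -0.13 ± 0.05. None of these passed (adjusted p from 0.15 to 0.907). The subunits Gabra2, Gabra4, Gabra5, Gabra6 and Gabrg3 were between -0.06 and 0.04 in both groups, and Gabrb2 was at 0.10 and 0.09. Gabrr2 was at 0.04 and 0.09, with a saline range of -0.34 to 0.34.

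GABA-A subunit genes lie in groups along the genome. In the RefSeq annotation (GRCm38.p6, used here for gene order), Gabrg1, Gabra2, Gabra4 and Gabrb1 follow each other with 1 other protein-coding gene among them. The outer genes Gabrg1 and Gabrb1 were at 0.33 and 0.21 with morphine, and the inner ones Gabra2 and Gabra4 at -0.06 and -0.03. The first annotated Gabrb1 start lies 387 bases from that of Gabra4, on the opposite strand. In the X-linked group, Gabre, Gabra3 and Gabrq were at 0.12, 0.12 and 0.37 with morphine, and 1 of the 3 was called. The pairs Gabra6 with Gabrb2, Gabrg3 with Gabra5 and Gabrr2 with Gabrr1 held no call. Differences between neighbours were not tested.

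**Figure D3:**
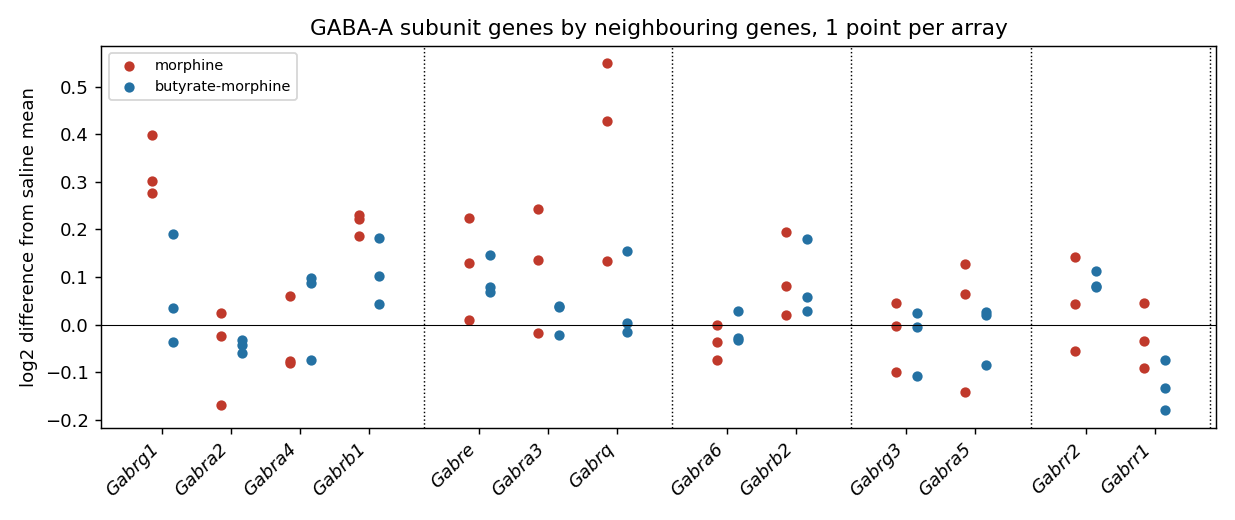
Log2 difference from the saline mean (y axis) of 13 GABA-A subunit genes in annotated gene order (x axis), 1 point per array, for morphine (red) and butyrate-morphine (blue). Dotted lines separate groups of neighbouring genes. The outer genes of the first group, Gabrg1 and Gabrb1, have every morphine point at or above 0.19, while the morphine points of Gabra2 and Gabra4 spread around 0.

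GABA-B receptors work as a heterodimer of Gabbr1 and Gabbr2, and neither was called. Gabbr1 hardly moved, at 0.00 ± 0.02 with morphine and -0.01 ± 0.01 with butyrate-morphine. Gabbr2 was at 0.17, -0.31 and -0.16 in the morphine arrays and 0.03, -0.15 and -0.15 in the butyrate-morphine arrays, with saline between -0.12 and 0.12. Its morphine arrays thus lay on both sides of saline (-0.10 ± 0.25, SD, n = 3, adjusted p = 0.659). The same morphine arrays had cortical marker means of 0.08, -0.73 and -0.33, in the same order. In the butyrate-morphine arrays these means were -0.15, 0.04 and -0.08, and Gabbr2 was highest where the mean was lowest. A relation between them was not tested beyond the covariate fit.

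Among kainate receptor subunits, Grik1 (GluK1) rose and the other 4 did not pass. Grik1 was at 0.20, 0.27 and 0.51 in the morphine arrays and 0.24, 0.04 and 0.16 in the butyrate-morphine arrays. Saline arrays lay between -0.15 and 0.15 with a median of 0.00. All morphine arrays were above saline, with array 3 the highest, and butyrate-morphine array 2 was within the saline range. The rise with morphine was 1.25-fold (0.33 ± 0.16, SD, n = 3, adjusted p = 0.034), and over both groups 1.18-fold (0.24, SE 0.06, adjusted p = 0.0417). With butyrate-morphine it was at 0.15 ± 0.10 (adjusted p = 0.343). The morphine call passed in 5 of 12 fits that left out an array. Losing any saline array other than 3, or morphine array 2 or 3, ended it (adjusted p up to 0.152). The call for both groups passed in 4 of 12, those without saline array 3, morphine arrays 1 or 2 or butyrate-morphine array 2 (adjusted p up to 0.0996). With saline pair means the adjusted p was 0.106 for morphine and 0.112 for both. With the covariates the values were 0.17 for morphine (adjusted p = 0.401) and 0.10 for both.

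The kainate receptor subunit Grik5 did not pass, at -0.12 ± 0.13 with morphine and 0.06 ± 0.12 with butyrate-morphine. Grik2, Grik3 and Grik4 were at 0.01, -0.06 and 0.00 with morphine and at 0.10, -0.06 and -0.06 with butyrate-morphine.

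Of the AMPA receptor subunits, Gria4 (GluA4) was higher by the same amount in both groups. It was at 0.09, 0.08 and 0.30 in the morphine arrays and 0.24, 0.13 and 0.09 in the butyrate-morphine arrays, with saline between -0.05 and 0.05 and a median of 0.00. It was the 1 member with all 6 of these arrays above every saline array, as were 1.95% of all genes. Each group alone did not pass (0.15 ± 0.12 and 0.16 ± 0.08, adjusted p = 0.126 and 0.124). Together they did, at 1.11-fold (0.16, SE 0.04, adjusted p = 0.047). That call passed in 3 of 12 fits without an array, those without morphine arrays 1 or 2 or butyrate-morphine array 3 (adjusted p up to 0.108). It was also lost with array medians centred (adjusted p = 0.058) and with saline pair means (0.137). With array medians centred, 2 members were called higher and 2 lower, beside 933 calls over all genes. With the covariates the value was 0.07. The other AMPA subunits, Gria1, Gria2 and Gria3, were at 0.03, -0.02 and -0.07 with morphine and 0.09, 0.00 and 0.01 with butyrate-morphine. Gria2, the subunit that limits calcium entry, was called in neither group. Its 95% intervals in the fit with 6 saline replicates were -0.14 to 0.09 with morphine and -0.12 to 0.12 with butyrate-morphine.

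No NMDA or delta receptor subunit passed in any comparison. The lowest p over both groups was that of Grin2c, a subunit known from cerebellum and astrocytes. It was at -0.08, -0.08 and -0.12 in the morphine arrays and -0.06, -0.06 and -0.09 in the butyrate-morphine arrays, with saline between -0.02 and 0.02 and a median of 0.00. All 6 arrays were below all saline arrays, as for 1.34% of all genes, by a small amount (-0.08, SE 0.02, adjusted p = 0.0568). With the covariates the difference was -0.07, and with array medians centred it passed. Grin3a, a subunit that dampens NMDA receptor currents, was at 0.25 ± 0.19 with morphine (adjusted p = 0.0843) and 0.07 ± 0.13 with butyrate-morphine. Its morphine values were 0.06, 0.25 and 0.44, beside thalamic and septal means of 0.09, 0.54 and 0.65. In the butyrate-morphine arrays its values were 0.09, -0.07 and 0.18, beside means of 0.49, -0.07 and 0.24, which stand in another order. With the covariates its morphine difference was 0.06.

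Grin2a was at 0.14, -0.53 and -0.28 in the morphine arrays, beside cortical means of 0.08, -0.73 and -0.33. In the butyrate-morphine arrays it was at -0.09, 0.04 and -0.10, beside means of -0.15, 0.04 and -0.08, which stand in another order. The morphine mean of Grin2a, -0.22 ± 0.34, did not pass (adjusted p = 0.307) and became 0.05 with the covariates. Grin2b, a main NMDA subunit of projection neurons, was at -0.04 and 0.05 in the morphine and butyrate-morphine groups. Grin2d was at 0.11 ± 0.24 and 0.20 ± 0.07, Grin3b at -0.03 and 0.03, and the delta receptor Grid1 at -0.06 and -0.05.

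**Figure D4:**
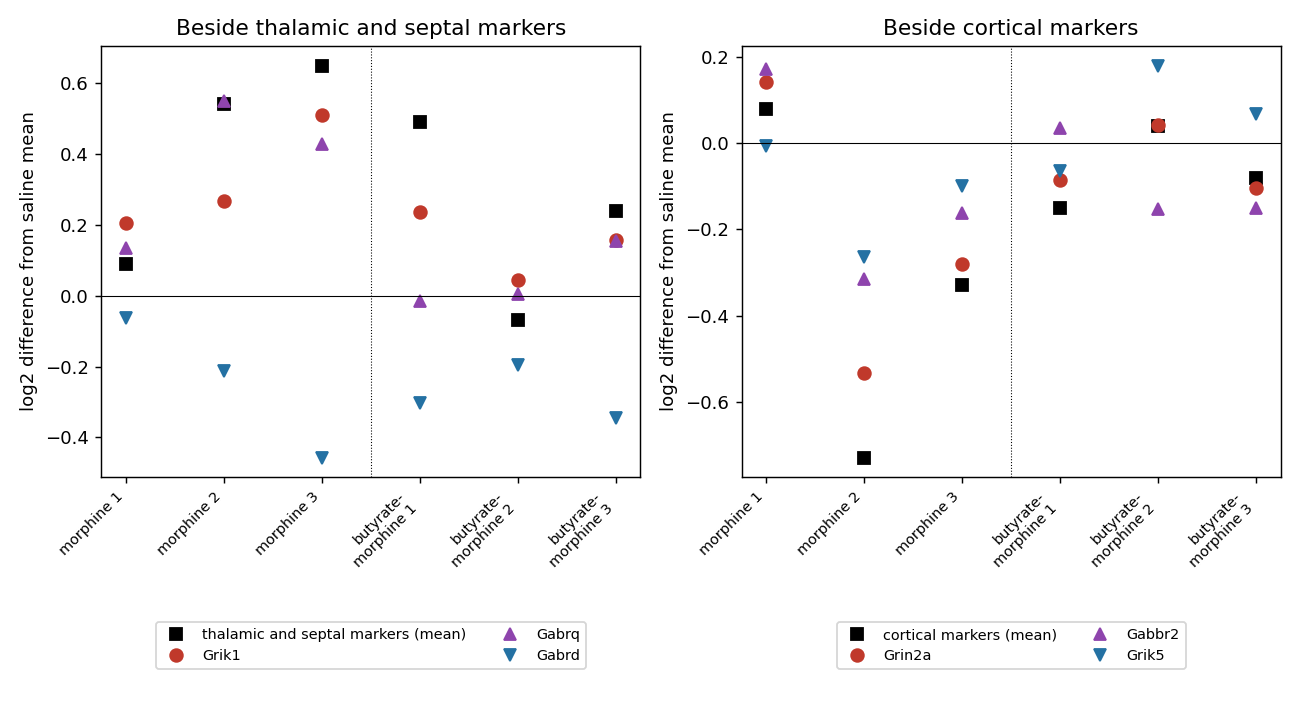
Log2 difference from the saline mean (y axis) in each morphine and butyrate-morphine array (x axis) for the mean of 8 thalamic and septal markers with Grik1, Gabrq and Gabrd (left), and for the mean of 5 cortical markers with Grin2a, Gabbr2 and Grik5 (right). Morphine array 2 is lowest for the cortical mean, at -0.73, and for Grin2a, at -0.53. Among the butyrate-morphine arrays, array 1 is lowest for the cortical mean, at -0.15, and array 3 for Grin2a, at -0.10. Morphine array 3 is highest for the thalamic and septal mean, at 0.65, and for Grik1, at 0.51.

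The metabotropic glutamate receptors were the quietest large class, with differences from -0.11 to 0.11 in both groups and no call. Grm4, a presynaptic receptor that reduces transmitter release, had the lowest p over both groups. It was at -0.09, -0.10 and -0.13 in the morphine arrays and -0.02, -0.19 and -0.11 in the butyrate-morphine arrays, with saline between -0.06 and 0.06 and a median of 0.00. The morphine arrays were below saline and butyrate-morphine array 1 was not (-0.11 over both groups, SE 0.04, adjusted p = 0.115). With the covariates it was at -0.14. Grm5, the group I receptor among these members, was at -0.02 ± 0.03 and 0.05 ± 0.03. Grm2, Grm3, Grm6, Grm7 and Grm8 were at 0.11, -0.07, -0.06, 0.00 and 0.05 with morphine.

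Butyrate-morphine was then compared with morphine. No group received butyrate without morphine. The comparison therefore cannot tell a change in the response to morphine from an effect of butyrate on its own. By limma 0 of 39 members and 0 of 19935 genes passed (0%), while 5 members had an unadjusted p under 0.05, which is 12.8% of them beside 8.62% of all genes. Grin3a, Gabrb1, Gabrg1 and Gabrq were lower with butyrate, 4 members (2.26% of all genes had such a p and were lower), and Grik5 was higher (6.36%). The largest difference was that of Gabrq, at -0.32 (95% interval -0.50 to -0.15, adjusted p = 0.281). It passed in the fit without morphine array 1 (adjusted p = 0.0173), where 23 of all genes were called, and in no other fit run. Gabrg1 differed by -0.26 (-0.46 to -0.06), Grin3a by -0.18 (-0.36 to -0.01), Gabrb1 by -0.10 (-0.20 to -0.00) and Grik5 by 0.19 (0.04 to 0.33). These unadjusted intervals, from the fit with 6 saline replicates, leave out 0 before the number of genes is taken into account, and after it no difference was called. For Gria4 the difference was 0.00 (-0.12 to 0.12) and for Gabrd -0.04 (-0.21 to 0.13). The thalamic and septal means, 0.49, -0.07 and 0.24 with butyrate-morphine and 0.09, 0.54 and 0.65 with morphine, overlapped between these groups. The part of this in the differences was not tested beyond the covariate fit, in which Gabrq differed by -0.20, Gabrg1 by -0.24, Grin3a by -0.10, Gabrb1 by -0.10 and Grik5 by 0.09.

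Counting every member with an unadjusted p under 0.05 gave 12 for morphine against saline (30.8%, beside 15.5% of all genes) and 8 for butyrate-morphine (20.5%, beside 17%). For morphine they were 8 higher (6.81% of all genes) and 4 lower (8.73%), and for butyrate-morphine 4 higher (10.5%) and 4 lower (6.44%). Over both groups they were 13 (33.3%, beside 19.1%), of which 9 were higher (10.1%) and 4 lower (8.99%). These comparisons share the saline arrays.

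Arrays that did not overlap were also counted, without a model. In the comparisons with saline this count shares the limit of the limma fit. The saline range comes from mirrored pairs, so it leaves out differences between pairs and is understated. Morphine arrays were all above saline for 6 members (3.84% of all genes), Gria4, Grik1, Grin3a, Gabrb1, Gabrg1 and Gabrq, and all below it for 2 (4.35%), Grin2c and Grm4. Butyrate-morphine arrays were all above saline for Gria4, Grin2d and Gabre, 3 members (7.1%), and all below it for Grin2c, Grid1 and Gabrd, also 3 (4.55%). Butyrate-morphine arrays were all above the morphine arrays for 1 member, Grm5 (7.75%), and all below them for 2, Gabrb1 and Gabrg1 (2.99%).

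The proteins that make, move, anchor or modify these receptors were read from 5 lists. Among 17 auxiliary subunits of glutamate channels, 3 fell with morphine and 0 rose, beside the 1.29% and 1.37% of all genes given above, with a median of -0.12 against 0.00 over all genes. They were Cacng3, a TARP that traffics AMPA receptors (-0.24 ± 0.13, adjusted p = 0.0185), Neto1, a kainate and NMDA receptor partner (-0.20 ± 0.07, adjusted p = 0.0207), and Olfm1, a secreted AMPA receptor partner (-0.25 ± 0.15, adjusted p = 0.0267). With butyrate-morphine Cacng3 fell (-0.19 ± 0.04, adjusted p = 0.0499). With the covariates the morphine values were -0.15, -0.14 and -0.17 (adjusted p of 0.128, 0.231 and 0.175), and Cacng3 was at -0.19 with butyrate-morphine (adjusted p = 0.0207). With saline pair means none of these calls passed (adjusted p of 0.0793, 0.0895, 0.0966 and 0.162). Over both morphine groups 3 of the 17 fell, beside 1.91% of all genes, and Cacng3 was the lowest at -0.215. There Cacng3 passed with saline pair means (adjusted p = 0.033) and with the covariates (-0.168, adjusted p = 0.0255). Neto1 and Olfm1 did not pass there with saline pair means (0.106 and 0.131). Cacng3 and Olfm1 are also abundant in cortex, and cortical marker means differed between arrays as given above.

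Among 13 genes of glutamate synthesis, transport and release, 2 rose with morphine (1.37% of all genes did) and 0 fell (1.29%). Slc17a6, a vesicular glutamate transporter also counted among the thalamic markers, was at 0.81 ± 0.44 (adjusted p = 0.0418). Slc38a2, a glutamine carrier, was at 0.30 ± 0.10 (adjusted p = 0.0067). With the covariates they were at 0.17 (adjusted p = 0.624) and 0.39 (adjusted p = 0.0223). Slc17a6 is itself part of the thalamic and septal mean used as a covariate, so its smaller value there was partly fixed in advance. Slc38a2 is in neither mean. With saline pair means Slc38a2 was called (adjusted p = 0.0335) and Slc17a6 was not (0.115). At an unadjusted p under 0.05, 3 of the 13 were higher (6.81% of all genes) and 2 lower (8.73%). The lowest value was that of Slc17a7, the other main vesicular glutamate transporter and a cortical marker, at -0.51 ± 0.69 (adjusted p = 0.221). It was at 0.02 with the covariates, which include it in the cortical mean, so this value too was partly fixed in advance. With butyrate-morphine neither Slc17a6 nor Slc38a2 passed, at 0.36 and 0.20, and over both groups both did, at 0.59 and 0.25. There Slc38a2 also passed with saline pair means (adjusted p = 0.0218) and with the covariates (0.0132). Slc17a6 passed in neither of these fits (0.119 and 0.623).

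Of 8 genes that make, carry or break down GABA, 0 passed in any of the comparisons with saline, by limma, where 2.66%, 2.48% and 4.59% of all genes did. The 2 with the lowest unadjusted p over both groups (0.0591 and 0.0618) were Gad2, a GABA-synthesising enzyme, at 0.14 ± 0.16 with morphine and 0.06 ± 0.06 with butyrate-morphine, and the GABA transporter Slc6a13, at 0.12 ± 0.10 and 0.04 ± 0.06. With morphine alone, 2 of the 8 had an unadjusted p under 0.05, both higher, beside 6.81% of all genes. Of 12 inhibitory scaffold and partner genes, 1 rose in each group, beside 1.37% and 1.85% of all genes. The chloride importer Slc12a2 rose by 0.29 ± 0.05 with morphine (adjusted p = 0.00414) and by 0.29 ± 0.09 with butyrate-morphine (adjusted p = 0.00394). Slc12a2 is also strongly made by the choroid plexus, whose markers were higher in the same arrays, and their part in it was not tested. With saline pair means both calls passed (adjusted p = 0.0246 and 0.0242), and with the cortical and thalamic covariates that of butyrate-morphine did (0.0186) and that of morphine did not (0.119). Of 17 excitatory scaffold genes, 1 fell with morphine, beside 1.29% of all genes. It was Dlgap2, a postsynaptic density protein (-0.27 ± 0.19, adjusted p = 0.0491). It was at -0.16 with the covariates (adjusted p = 0.228) and did not pass with saline pair means (0.145).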

How the data were processed

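RNA pools of 4 mice were hybridised to 12 Affymetrix Mouse Gene 1.0 ST arrays, per the labels' protocols. The authors deposited 1 table of 28815 rows, taken here as log2 values centred on saline pairs, with log base, background correction, normalization and the baseline of the morphine arrays not given in the sources used here. Rounding steps typical of stored values from 4 to 8 (71.7% of rows) and 8 to 16 (22.7%) fit log2 array values, and direction was taken as deposited. Of the rows, 21780 had 1 gene symbol in the platform annotation, 1605 several and 5430 none. Probe sets of a gene were averaged.

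limma 3.58.1 in R 4.3.3 (lmFit, eBayes) was fitted to all 12 arrays with 3 group means and no covariate, with Benjamini-Hochberg adjustment over 19935 genes and a threshold of 0.05 (9 residual and 3.99 prior degrees of freedom). This counts the 6 mirrored saline arrays as 6 replicates, so its p-values are too small. A fit with a mean for each saline pair, added after seeing the data, stands beside it. On simulated arrays of morphine against saline, 65% of 1.2-fold and 99% of 1.5-fold changes were recovered over 19935 genes, and 9.54% of calls were false, above the nominal share. The simulated noise was normal and independent between genes, with the fitted spread, and a small set of genes changed. Each morphine array was assumed to be centred on the saline pair of its number. These shares hold for that setting and may differ in the data. Members and lists were chosen with earlier results of these data known. Values are given per array for members called in any comparison and for the member of lowest p in each class. Gabrg1, Grin3a and Grin2a were added after their values were seen. From each list up to 6 called genes were named. Alternatives were other scalings, variance models, feature sets, saline subsets, the covariates, a threshold of 0.1, the replicate number as a block and each array left out.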

Additional observations from a re-analysis of the deposited data

How the results depend on the processing

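The counts of called members, 3 for morphine, 1 for butyrate-morphine, 0 between the morphine groups and 4 for both, rest on small differences and moved with many choices. They were 0 in every comparison with quantile normalization, with only saline arrays 1 to 3, with only saline arrays 4 to 6, with the cortical and thalamic covariates, and with each saline pair given its own mean, a fit added after seeing the data that counts a mirror pair as 1 degree of freedom. Quantile normalization was applied to centred values, and the subsets and covariates leave fewer degrees of freedom. Counting each saline mirror pair once, with the saline mean fixed at 0 without error, gave 7, 2, 0 and 12, and over all genes 1459, 1522, 0 and 3605 calls. A threshold of 0.1 gave 7 for morphine, with 1018 of all genes called. For butyrate-morphine the count was 0 with all rows as features (485 of all rows called), with trend and robust eBayes (230 of all genes) and with each probe set alone (487). It was 3 with only the groups compared, where 988 of all genes were called. For both groups it was 2 with trend and robust eBayes (524 of all genes). Leaving out 1 array gave 0 to 8 for morphine, 0 to 3 for butyrate-morphine, 0 to 1 between the morphine groups and 2 to 9 for both. Calls over all genes moved as well, from 240 to 1053, 213 to 728, 0 to 23 and 553 to 1368. The highest counts for morphine and for both came without morphine array 1 (8 and 9), which also gave the 1 call between groups. That fit called 1053, 1368 and 23 of all genes in these comparisons, in place of 531, 916 and 0. Without morphine array 3 the counts of members were 0, 3 and 2 for morphine, butyrate-morphine and both, beside 240, 631 and 627 of all genes. A fit without a saline array keeps its mirror image. Over all genes, the calls for morphine were 531, and 75, 54, 100, 96 and 171 with quantile normalization, the replicate block, saline arrays 1 to 3 or 4 to 6 and the covariates.

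With the replicate number as a block, 0 members were called in each comparison. Deviations of morphine and butyrate-morphine arrays with the same number correlated at -0.122, -0.266 and -0.203 for numbers 1 to 3. Deviations sum to 0 within a group of 3, so these correlations cannot tell whether arrays of a number were handled together. That was not tested further. Of 38 single-member values with an unadjusted p under 0.05, refitted in 937 cases, 807 kept their direction and side of the threshold. A call was lost in 93 cases and gained in 36. Most of the 38 values were not called before refitting, so the 807 include values that stayed uncalled. Only the called values, 3 for morphine, 1 for butyrate-morphine and 4 for both groups, could give the 93 losses. The 807 therefore do not measure how stable the calls were. In 1 case the direction changed: Grin2a with morphine, at 0.054 with the covariates. Other than as stated, the cause was not tested.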

Other observations

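The 3 probe sets of Gabrb2, a GABA-A beta subunit common in adult brain, gave a range of values, and differences between them were not tested. Over both morphine groups they were at 0.04, 0.10 and 0.14, with unadjusted p of 0.24, 0.15 and 0.035 by limma, and none passed after adjustment (adjusted p of 0.219 to 0.56). Gabrr2, a rho subunit, had the widest saline spread of the members, from -0.34 to 0.34 in saline arrays 5 and 6.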
